A study of Mus musculus with 26 samples.

Results

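Transcripts of 10 receptors for extracellular nucleotides and adenosine were followed through mesenteric arteries of mice that lacked pannexin 1 or carried 1 of 3 changes at its phosphorylation sites. The receptors were P2rx1, P2rx4 and P2rx7, P2ry1, P2ry2, P2ry6 and P2ry14, and Adora1, Adora2a and Adora2b, taken by gene symbol from the deposited normalized table, which holds 21031 of the 57010 genes in the count table. All mice were male and 8 weeks old, and each library was made from poly(A) RNA of mesenteric arteries and read with 150-base paired reads. The 26 libraries formed 8 groups. The Panx1 KO libraries (n = 3), from mice with a global loss of Panx1, were set against WT libraries (n = 3). The Y198F libraries (Y198F+/+, n = 3) were set against controls labelled Y198F-/- (n = 3), the S205A libraries (S205A+/+, n = 4) against controls labelled S205A-/- (n = 4), and the Y308F libraries (Y308F+/+, n = 3) against controls labelled Y308F-/- (n = 3). The labels give no strain or treatment. They describe the controls as littermates or wild-type mice and give 3 vascular trees per genotype without tying a library to 1 animal, so the p-values measure the spread between these libraries, part of which may be technical.

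Pannexin 1 forms channels through which cells release ATP. Released ATP opens P2X receptors, which are cation channels, and with its breakdown product ADP and the uridine nucleotides it activates P2Y receptors, which couple to G proteins. Ectonucleotidases on the cell surface degrade ATP to adenosine, which acts on its own G protein-coupled receptors. In small arteries, ATP from sympathetic nerves contracts smooth muscle through the receptor encoded by P2rx1, while P2Y receptors of the endothelium and the adenosine receptors coupled to Gs promote dilation. The 4 comparisons ask whether the transcripts of these receptors differ when the channel is absent or when 1 of its modified residues is replaced.

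The 10 genes lie on 6 chromosomes of GRCm39, and all are protein coding. P2rx1 (ENSMUSG00000020787) spans chr11:72889875-72906026 and Adora2b (ENSMUSG00000018500) chr11:62139804-62157279, both on the plus strand. P2rx7 (ENSMUSG00000029468, chr5:122781942-122830400) and P2rx4 (ENSMUSG00000029470, chr5:122845541-122867803) follow each other on the plus strand with 15.1 kb between them. P2ry6 (ENSMUSG00000048779, chr7:100585308-100624173) and P2ry2 (ENSMUSG00000032860, chr7:100640649-100663957) are neighbours on the minus strand, 16.5 kb apart. P2ry14 (ENSMUSG00000036381, chr3:59021276-59061134, minus strand) and P2ry1 (ENSMUSG00000027765, chr3:60910159-60916403, plus strand) share chromosome 3. Adora1 (ENSMUSG00000042429) lies at chr1:134126948-134163579 on the minus strand and Adora2a (ENSMUSG00000020178) at chr10:75152560-75170628 on the plus strand. P2ry14 lies within Med12l, a gene of the opposite strand, but they share 0 exonic bases. Exons of Mybph on the opposite strand cover 52.4% of the Adora1 exons, and Mybph itself had 0 to 4 counts per library. The long noncoding RNA Gm37035 covers 21.8% of the P2ry1 exons from the opposite strand and had 0 to 9 counts. Whether the counting used strand is not given in the sources used here.

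RefSeq promoters of GRCm38.p6 were found for 8 of the 10 genes, with 14 start sites in all; P2ry6 and Adora2a are named only. Those of 3 genes are printed here, each as the 250 bases before the start site on the plus strand: P2rx1, whose transcript was by far the most abundant; P2rx4, the only promoter of the set with TGACG; and Adora2b, the promoter with the most GC boxes. Capitals mark TGACG or its complement CGTCA in P2rx4, and the GC box GGGCGG or its complement CCGCCC in Adora2b; the P2rx1 promoter held none of the motifs searched.
P2rx1, chr11:72998895-72999144: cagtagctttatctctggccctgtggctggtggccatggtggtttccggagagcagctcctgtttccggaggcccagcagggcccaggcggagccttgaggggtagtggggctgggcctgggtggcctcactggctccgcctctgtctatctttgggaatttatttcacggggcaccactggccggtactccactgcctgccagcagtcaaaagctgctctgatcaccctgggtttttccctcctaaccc
P2rx4, chr5:122707294-122707543: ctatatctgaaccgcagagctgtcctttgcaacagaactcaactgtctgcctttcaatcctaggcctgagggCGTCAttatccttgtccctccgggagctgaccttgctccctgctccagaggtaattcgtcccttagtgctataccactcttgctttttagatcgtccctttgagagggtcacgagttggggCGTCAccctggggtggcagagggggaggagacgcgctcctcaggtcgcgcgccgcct
Adora2b, chr11:62248734-62248983: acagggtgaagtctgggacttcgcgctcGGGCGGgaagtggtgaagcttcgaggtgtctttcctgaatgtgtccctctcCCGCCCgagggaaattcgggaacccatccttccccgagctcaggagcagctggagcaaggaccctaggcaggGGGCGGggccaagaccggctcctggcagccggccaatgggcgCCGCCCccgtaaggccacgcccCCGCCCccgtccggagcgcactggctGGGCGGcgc
Motifs were searched on both strands of 300 bases, 50 of them after the start, in these and in all 32851 promoters of the RefSeq table. The CArG box, the site of serum response factor in many smooth muscle genes, was in 0 of the 14 receptor promoters and in 1.63% of all. GGGCGG was in 7 of the 14, belonging to 6 genes, against 35.7% of all promoters. It occurred 6 times in the Adora2b promoter and 1 time, after the start site, in that of P2rx4. TGACG was in the P2rx4 promoter only (20.8% of all), TATAAA in that of P2ry14 only (13.6%), CATTCC in that of Adora1 only (14.7%), and TGACGTCA, which contains TGACG, in none (1.79%). The 300 bases held 7 CpG dinucleotides for P2rx1, 18 for P2rx4 and 27 for Adora2b. These matches describe the letters of the windows and nothing about binding.

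The libraries held 14895969 to 23617902 counts. Levels are given as CPM, the usual scaling of counts to a library's normalized total. In WT arteries Panx1 had 61 to 96 counts per library (4.41 ± 0.891 CPM, mean ± SD), and in the Panx1 KO libraries 11 to 27 (0.961 ± 0.388). The S205A control libraries ranged from 16 to 74 Panx1 counts, and the lowest, S205A control 1, fell within the range of the knockout. Markers fitted the tissue: the smooth muscle gene Myh11 had at least 151457 counts and the endothelial gene Pecam1 at least 11085 in every library. The neutrophil gene Ly6g was at 0 in all 26, and the nerve gene Th, the enzyme that makes catecholamines, was at 0 in 24. Library S205A control 1 stood apart, with the lowest endothelial sum of all libraries (8 markers, 1212 CPM) and the highest smooth muscle sum (8 markers, 43089 CPM). S205A control 2 lay on the other side, with 10040 and 23199 CPM. The library numbers of 9 samples begin with 22: all 3 Y198F libraries, S205A controls 1 to 3 and S205A 2 to 4. The labels do not say what this series of numbers stands for; it is called the 22 series here. Every Y198F library belongs to it and none of the labelled Y198F controls does, so in that comparison genotype and series cannot be told apart. Within a group the series varies only in the S205A line, where S205A control 4 and S205A 1 lie outside it. A fit with a series term therefore estimates that term from this line and does not separate genotype from series in Y198F.

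P2rx1 was the dominant receptor transcript. Expressed per kilobase of exon, its level was 326.9 ± 87.3 CPM per kb (SD over 26 libraries, range 209 to 600), which was 85.0 times that of the next receptor and higher than 99.7% of 18619 genes. It made up 91.9 to 97.7% of the summed level of the 10 receptors in each library. The other 9 formed a low and closely spaced series. Next came P2rx7 at 3.84 ± 0.644, P2ry6 at 3.63 ± 1.13 and P2rx4 at 3.06 ± 0.450 CPM per kb. P2ry1 stood at 2.18 ± 0.732, Adora2b at 1.66 ± 0.447 and P2ry2 at 1.54 ± 0.399. The lowest were Adora1 at 0.83 ± 0.599, Adora2a at 0.313 ± 0.182 and P2ry14 at 0.241 ± 0.106. Only the step from P2rx1 to P2rx7 separated without overlap. P2rx7 exceeded P2ry6 in 15 of 26 libraries and Adora2b exceeded P2ry2 in 14, so these neighbours did not differ beyond their spread, whereas Adora1 exceeded Adora2a in 25. The order below P2rx1 depended on the length used: per kilobase of the canonical transcript, P2rx1 was 29.3 rather than 85.0 times the next receptor, which was P2ry6 with 11.8, followed by P2rx4 with 8.61 and P2rx7 with 7.55, and P2ry14 with 1.51 rose above Adora1 and Adora2a. Among 9 purinergic receptor genes outside this set that had values, P2rx5 was the highest at 2.89 CPM per kb.

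**Figure D1:**
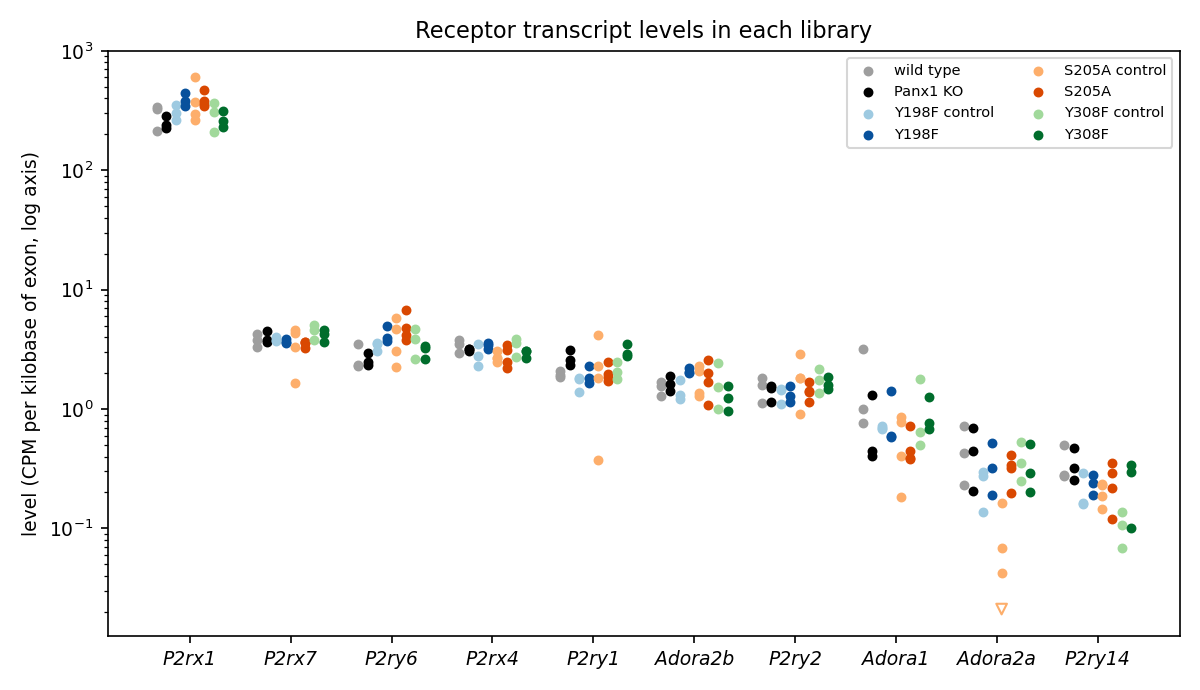
Level of each receptor transcript in CPM per kilobase of exon on a log axis, 1 point per library (26 libraries). P2rx1 lay between 209 and 600, above every value of the other 9 receptors, and Adora1, Adora2a and P2ry1 spread the most.

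The P2X channel genes differed in how evenly they were expressed. P2rx1, the channel of sympathetic neurotransmission in arterial smooth muscle, was measured at 878, 905 and 575 CPM in WT and at 646, 762 and 609 in Panx1 KO. It reached 953, 707 and 811 in Y198F controls, 1021, 1188 and 922 in Y198F, 1610, 790, 1007 and 709 in S205A controls, and 972, 1029, 921 and 1261 in S205A. The Y308F controls had 561, 828 and 978 CPM and the Y308F libraries 846, 622 and 695. Levels in the 22 series were higher (1083 ± 243 CPM, n = 9) than in the other libraries (768 ± 141, n = 17), with overlap from 790 to 978. P2rx4, an ATP-gated channel of endothelium and macrophages, was the steadiest receptor: its coefficient of variation over 26 libraries was 14.7%, and its group means lay between 21.3 ± 2.02 CPM in S205A controls and 26.5 ± 1.42 in Y198F. P2rx7, the channel opened by high ATP that triggers inflammasome assembly in immune cells, had group means from 33.9 ± 13 CPM in S205A controls to 43.9 ± 6.30 in Y308F controls, with overlapping ranges. Its lowest value by far, 16.2 CPM, was in S205A control 1.

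Among the P2Y genes, P2ry1, which encodes an ADP receptor of endothelium and platelets, ranged 11.1-fold, from 1.81 CPM in S205A control 1 to 20.2 in S205A control 2. Its highest group means were 14.7 ± 1.90 CPM in Y308F and 12.9 ± 1.94 in Panx1 KO, and the lowest was 7.98 ± 1.10 in Y198F controls. P2ry2, a receptor for ATP and UTP, also had its extremes in these S205A controls, at 9.18 and 28.8 CPM, and its group means of 13.3 CPM (Y198F) to 18.6 CPM (S205A controls) overlapped. P2ry6, a UDP receptor, was lowest in Panx1 KO (16.9 ± 2.16 CPM) and highest in S205A (31.7 ± 8.56), and like P2rx1 it was higher in the 22 series (30.3 ± 7.30, n = 9) than elsewhere (20.1 ± 4.51, n = 17). P2ry14, a receptor for UDP-glucose coupled to Gi, was sparse, with 15 to 109 counts per library. Its group means ran from 1.17 ± 0.386 CPM in Y308F controls to 3.96 ± 1.45 in WT.

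Of the adenosine receptor genes, Adora1 and Adora2a were low and had the highest coefficients of variation of the 10 receptors, while Adora2b varied less. Adora1, coupled to Gi, had a coefficient of variation of 72.2% and differed 17.3-fold between its extremes; that of Adora2a was 58.1% and that of Adora2b 27.0%. It reached 20.3 CPM in WT 3 while the other 2 WT libraries had 6.46 and 4.93, and 11.4 CPM in Y308F control 2 beside 4.15 and 3.20 in its group. Adora2a, coupled to Gs and a mediator of vasodilation, had 0 to 73 counts per library. Its means were 2.42 ± 1.28 CPM in WT, 2.36 ± 1.29 in Panx1 KO, 1.25 ± 0.459 in Y198F controls, 1.80 ± 0.862 in Y198F, 1.98 ± 0.740 in Y308F controls and 1.75 ± 0.835 in Y308F. The S205A controls stood below them at 0.362 ± 0.366, and S205A had 1.67 ± 0.468. Adora2b, the adenosine receptor of low affinity that also couples to Gs, was between 2.32 ± 0.545 CPM in Y308F and 3.84 ± 0.216 in Y198F, and was higher in the 22 series (3.75 ± 0.632) than in the other libraries (2.7 ± 0.680).

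Part of the spread within groups moved with markers of particular cell types. In bulk tissue, fewer cells of a type and less RNA per cell cannot be told apart. Deviations of log2 CPM from the mean of a library's group and series were correlated with those of 11 marker lists over 24 libraries, giving 110 relations. P2rx1 followed the 8 smooth muscle markers (Pearson r = 0.95, permutation p = 1e-05, the smallest the permutations can give, adjusted over the 110 to 0.0011; Spearman rho = 0.927, adjusted permutation p = 0.0022). Without the 2 most distant libraries, S205A controls 1 and 2, r was 0.931, and it was 0.968 within the 22 series (n = 9) and 0.938 outside it (n = 15). Adora1 followed the 5 adipocyte markers, among them Adipoq (r = 0.808, permutation p = 6e-05, adjusted 0.0033; rho = 0.771, adjusted permutation p = 0.0192), with r = 0.848 after the 2 most distant libraries were left out and 0.751 and 0.858 within and outside the 22 series. P2rx4 followed the macrophage markers, such as Csf1r and C1qa (r = 0.835, permutation p = 0.00082, adjusted 0.0301; rho = 0.771, adjusted permutation p = 0.0286), with r = 0.759 without the 2 most distant libraries and 0.668 and 0.948 by series. These 3 relations also passed an adjusted p of 0.05 when S205A control 1 or S205A control 2 was left out.

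The relations of P2rx7, P2ry1 and P2ry2 with endothelial markers were stronger with S205A controls 1 and 2 than without them. For P2rx7, r was 0.894 (adjusted permutation p = 0.0515; rho = 0.690) and fell to 0.595 without S205A controls 1 and 2. For P2ry1, r fell from 0.880 (adjusted permutation p = 0.106) to 0.480, and for P2ry2 from 0.743 (adjusted permutation p = 0.209) to 0.278. Outside the 22 series, which leaves out both libraries, r was 0.533 for P2rx7, 0.361 for P2ry1 and 0.435 for P2ry2 (n = 15), so these libraries enlarged the relations, and none of the 3 passed the adjusted threshold by r. P2ry6 had r = 0.744 with smooth muscle (adjusted permutation p = 0.0662) and 0.633 without them. P2rx4 was inversely related to smooth muscle markers (r = -0.648, adjusted permutation p = 0.0447), but the adjusted permutation p was 0.055 without S205A control 1 and 0.0906 without S205A control 2. It also followed the mast cell markers (r = 0.712, adjusted permutation p = 0.0447; rho = 0.750, adjusted permutation p = 0.0286), whose sums were low, at most 9.35 CPM in a library. There r was 0.690 without the 2 most distant libraries, 0.427 within and 0.890 outside the 22 series, and the adjusted permutation p was again 0.055 and 0.0906 without S205A control 1 or 2. Adora1 passed by rank only with the platelet markers (rho = 0.741, adjusted permutation p = 0.0314; r = 0.741, adjusted permutation p = 0.0515) and the macrophage markers (rho = 0.623, adjusted permutation p = 0.0314; r = 0.591, adjusted permutation p = 0.0515). Without the 2 most distant libraries r was 0.674 for platelet and 0.677 for macrophage markers, and by series it was 0.799 and 0.715 for platelet and 0.655 and 0.550 for macrophage markers, within and outside the 22 series. In all, 5 relations passed by r and 7 by rho. Adora2a passed with no list. Its highest r was 0.505 with mesothelium markers (adjusted permutation p = 0.0787; rho = 0.597, adjusted permutation p = 0.0558), followed by adipocyte (0.485), platelet (0.478), macrophage (0.464) and fibroblast markers (0.412, adjusted permutation p = 0.179). The r with fibroblast markers was 0.222 within the 22 series and 0.711 outside it.

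**Figure D2:**
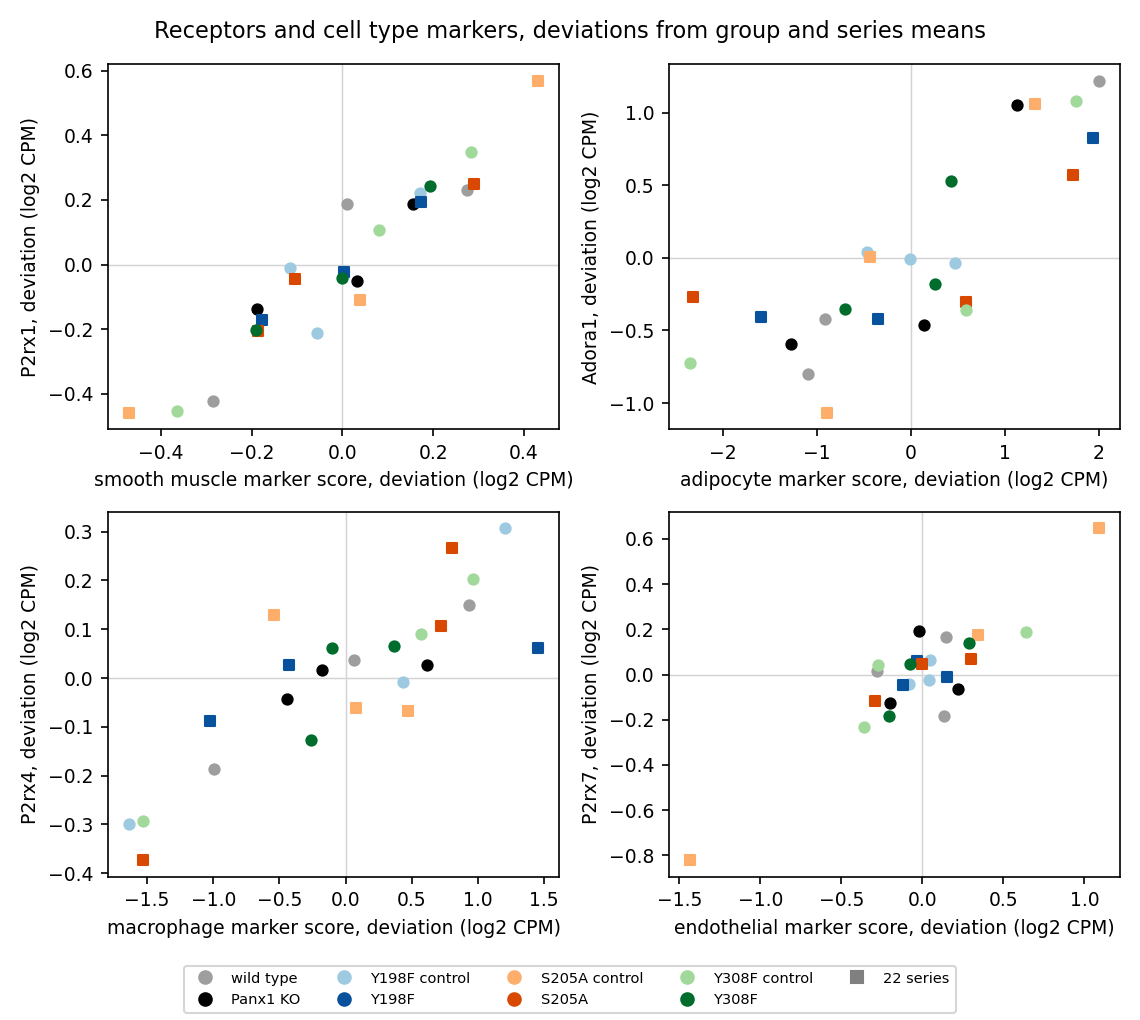
Deviations of log2 CPM from group and series means for P2rx1 against smooth muscle, Adora1 against adipocyte, P2rx4 against macrophage and P2rx7 against endothelial markers, 1 point per library (24 libraries). P2rx1 (r = 0.95), Adora1 (r = 0.808) and P2rx4 (r = 0.835) follow their markers along the whole range, whereas the P2rx7 relation (r = 0.894) is stretched by them and is 0.595 without them.

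By edgeR, none of the receptors passed the threshold between a mutant and its controls after adjustment over all tested genes, whereas DESeq2 over all 8 groups, as in the authors' deposited tables, called Adora2a in S205A. All 10 passed the filter on low counts in each comparison, and 0 of the 40 tests were called by edgeR's quasi-likelihood test at an adjusted p of 0.05 (smallest adjusted p 0.152); 5 had an unadjusted p under 0.05. Of all tested genes, 0.0309% were called for Panx1 KO, 15% for Y198F, 0% for S205A and 0% for Y308F. The share with an unadjusted p under 0.05 was 11.2%, 29.1%, 2.87% and 4.4% in that order, against 1, 1, 1 and 2 of the 10 receptors. Groups that did not overlap in CPM were found for 1 receptor in Panx1 KO, 2 in Y198F, 1 in S205A and 1 in Y308F, where the shares of all genes were 18.8%, 34.2%, 1.81% and 10.7%. The median log2 fold change of the 10 was -0.03 in Panx1 KO (all genes 0.0052), 0.27 in Y198F (all genes -0.0028), 0.03 in S205A (all genes -0.01) and -0.11 in Y308F (all genes -0.03). A single-gene exact permutation test can reach no less than 0.1 with 3 against 3 libraries and 0.0286 with 4 against 4.

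**Figure D3:**
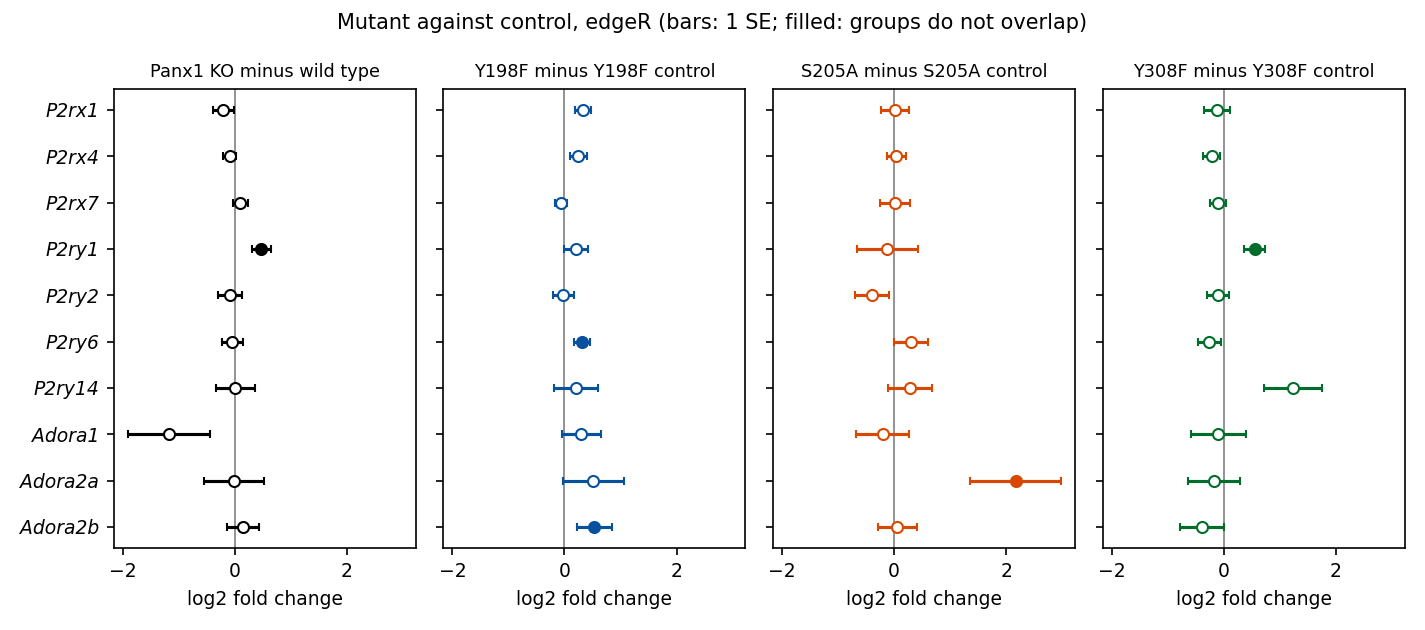
Log2 fold changes (mutant minus control, edgeR) of the 10 receptors in the 4 comparisons; bars are 1 SE and filled symbols mark groups that do not overlap in CPM. Adora2a in S205A (2.17 ± 0.81) and P2ry14 in Y308F (1.24 ± 0.52) had the highest values, Adora1 in Panx1 KO (-1.18 ± 0.74) the lowest, and none passed an adjusted p of 0.05.

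In arteries without pannexin 1, no receptor transcript passed the adjusted threshold against WT, and P2ry1 and Adora1 differed most. P2ry1 had 12.4, 11.2 and 15.0 CPM in Panx1 KO against 10.1, 9.20 and 9.0 in WT. Every knockout library lay above every WT library. This gave 0.47 ± 0.17 on the log2 scale (fold change ± SE), with an edgeR adjusted p of 0.385 and an exact permutation p of 0.1. Adora1 had 2.86, 2.60 and 8.35 CPM in Panx1 KO against 6.46, 4.93 and 20.3 in WT (-1.18 ± 0.74, edgeR adjusted p = 0.614). In each group the library with the most Adora1 also had the most adipocyte marker RNA: WT 3 with 1052 CPM against 171 and 141, and Panx1 KO 3 with 273 against 130 and 51.0. Without WT 3 the Adora1 value was -0.28, and without Panx1 KO 3 it was -1.93. All 5 adipocyte markers were lower in the knockout (median log2 fold change -1.57) with 0 called. Other lists differed too, again with 0 called: 5 of 5 erythroid markers were lower (median -2.88; WT 3 alone summed to 608 CPM) and 8 of 8 smooth muscle markers (-0.24), while 8 of 8 tested macrophage markers (0.48), 4 of 4 lymphoid (0.75) and 3 of 3 mast cell markers (2.08) were higher. The part of these cells in the receptor values was not tested. The other 8 receptors lay between -0.20 for P2rx1 and 0.15 for Adora2b. Their edgeR 95% limits were wide for the sparse genes, at -1.05 to 1.03 for Adora2a and -0.67 to 0.68 for P2ry14.

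In the Y198F line, 8 of the 10 receptors were higher than in the labelled controls, none past the threshold. P2rx1 (log2 fold change 0.34 ± 0.15, edgeR adjusted p = 0.152) overlapped at 922 to 953 CPM. P2ry6 had 25.9, 32.4 and 24.1 CPM against 23.2, 22.8 and 20.1 (0.31 ± 0.14, edgeR adjusted p = 0.174). Adora2b had 3.75, 4.08 and 3.68 CPM against 2.41, 3.26 and 2.24 (0.53 ± 0.31, edgeR adjusted p = 0.296). In the last 2 the groups did not overlap, and all 3 are the genes that were higher in the 22 series as a whole. The 22 series includes these Y198F libraries and the other libraries include their controls, so the 2 observations are not separate evidence. With the series as a term over all 8 groups, the values of the 3 genes were -0.055, -0.40 and -0.22. That term rests on the S205A line and does not separate genotype from series here. Against the S205A controls of the 22 series, which are of another line, the values were -0.12, -0.10 and 0.11. The share of all genes called, 15%, likewise became 0 genes in both fits. Cell type markers also differed between these groups. The fibroblast sum was 2798, 1822 and 2589 CPM in Y198F against 3836, 3666 and 2933 in the controls, without overlap, and 6 of 6 markers were lower (median log2 fold change -1.04, 0 called). The endothelial sum was 5141, 5031 and 5508 CPM against 4805, 3891 and 4958, also without overlap, with 2 of 8 markers called higher and 1 lower. The smooth muscle sums overlapped, with 2 of 8 markers called higher and 1 lower. With 0 called, 8 of 8 tested macrophage markers were lower (median -0.53), and 5 of 5 adipocyte (1.23), 5 of 5 erythroid (1.55) and 3 of 3 lymphoid markers (0.75) were higher. The part of these cells in the receptor values was not tested.

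In the Y308F line, P2ry1 and P2ry14 had the lowest p-values. P2ry1 had 13.3, 13.9 and 16.9 CPM in Y308F against 11.9, 8.55 and 9.81 in its controls, without overlap (log2 fold change 0.56 ± 0.19, edgeR adjusted p = 0.940, exact permutation p = 0.1). P2ry14 had 3.31, 1.14 and 3.82 CPM against 1.20, 0.773 and 1.54, on 63, 27 and 75 counts against 26, 15 and 28. Library Y308F 2 lay within the control range, and the value of 1.24 ± 0.52 had an edgeR adjusted p of 0.940. The remaining 8 receptors were lower, by log2 values from -0.10 for P2rx7 to -0.38 for Adora2b. P2ry1 was thus higher in both Panx1 KO and Y308F, but it passed in neither. Among cell type markers, with 0 called, 7 of 7 tested macrophage (median log2 fold change -0.32), 3 of 3 lymphoid (-0.74) and 4 of 4 mesothelium markers (-2.08) were lower in Y308F, the last summing to 24.8, 18.8 and 0.110 CPM in the controls and 4.62, 4.06 and 1.17 in Y308F. The endothelial sums were 9929, 4237 and 4944 CPM in the controls and 5583, 7647 and 5187 in Y308F. The part of these cells in the P2ry1 and P2ry14 values was not tested.

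**Figure D4:**
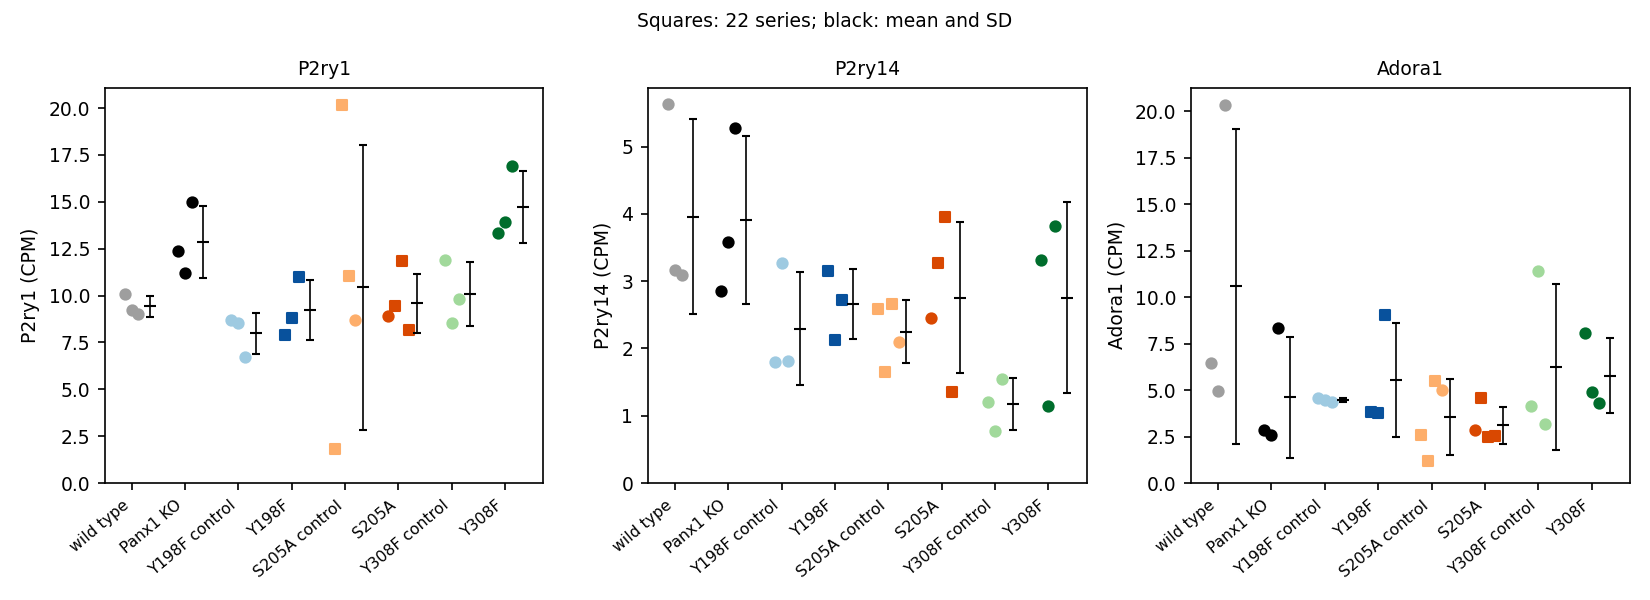
CPM of P2ry1, P2ry14 and Adora1 in each library of the 8 groups; squares mark the 22 series, and black marks the mean and SD. P2ry1 does not overlap between Panx1 KO and WT or between Y308F and its controls, P2ry14 overlaps between Y308F and its controls, and the highest Adora1 value is WT 3 at 20.3 CPM.

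Adora2a was the receptor that differed most, in the S205A line. The S205A controls had 7, 0, 4 and 16 counts, or 0.363, 0, 0.222 and 0.863 CPM, and the S205A libraries had 36, 26, 36 and 16 counts, or 1.80, 1.70, 2.15 and 1.03 CPM. In the control at 0, a floor of 3 counts corresponds to 0.176 CPM. The groups did not overlap (the nearest libraries were at 0.863 and 1.03 CPM), and the log2 fold change was 2.17 ± 0.81, a 4.51-fold difference (edgeR unadjusted p = 0.0231, adjusted p = 1.0; exact permutation p = 0.0286, the smallest this design allows, and 0.8 after adjustment over the 40 tests). Within the 22 series alone, 3 against 3, the value was 3.00. With each library left out in turn it was 1.76 to 3.03. The low values were those of the controls: S205A itself (1.67 ± 0.468 CPM) lay within the range of group means of the 6 groups outside this line, 1.25 to 2.42 CPM.

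The authors' deposited table of the S205A comparison, made with DESeq2, puts Adora2a 2.19 higher on the log2 scale (adjusted p = 0.0375), as 1 of 96 genes called there (0.495%). It is the only receptor past the threshold in the authors' deposited tables, which call 0.134% of genes for Panx1 KO, 0.0158% for Y198F and 0% for Y308F. A DESeq2 fit of all 8 groups gave the deposited fold changes of this table within 0.0011 for every gene. Leaving out each of the 8 libraries in that fit, the adjusted p of Adora2a was 0.0953, 0.220, 0.187 and 0.00176 without S205A control 1, 2, 3 and 4, and 0.122, 0.0584, 0.339 and 0.0321 without S205A 1, 2, 3 and 4. The call was thus lost in 6 of the 8 cases. With the series as a term its DESeq2 adjusted p was 0.0113. These refits were chosen after the data were seen.

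Between the groups of the S205A line, fibroblast markers differed in the same direction as Adora2a. The 6 fibroblast markers (Pdgfra, Col1a1, Col1a2, Dcn, Lum and Dpt) summed to 1521, 1189, 1632 and 1866 CPM in the S205A controls and to 4333, 1939, 5850 and 3571 in S205A. The groups did not overlap, and 6 of 6 markers were higher (median log2 fold change 1.43), with 0 called. Within groups the relation of Adora2a to these markers did not pass the adjusted threshold. In the other comparisons the median of these markers was -0.05 in Panx1 KO, -1.04 in Y198F and 0.08 in Y308F. The Adora2a values there were -0.01, 0.52 and -0.17. In S205A, with 0 called, 5 of 5 adipocyte markers were lower (median -0.55), and 5 of 5 erythroid (0.27) and 6 of 7 tested macrophage markers (0.27) were higher. The part of these cells in the Adora2a value was not tested. Adora1, Adora2b and the P2X and P2Y genes had log2 fold changes in S205A between -0.40 for P2ry2 and 0.30 for P2ry6.

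**Figure D5:**
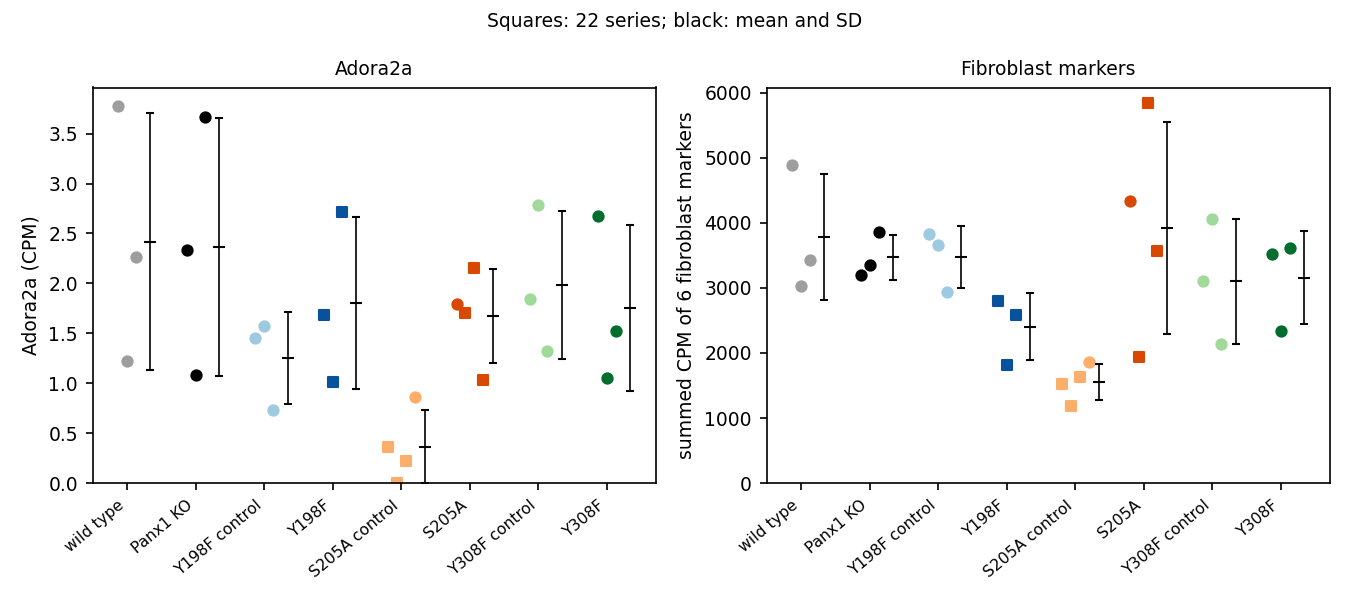
CPM of Adora2a and the summed CPM of 6 fibroblast markers in each library of the 8 groups; squares mark the 22 series, and black marks the mean and SD. In both panels the 4 S205A controls lie below all 4 S205A libraries, at 0 to 0.863 against 1.03 to 2.15 CPM for Adora2a.

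The deposited Y198F table held another contrast than its name. Its fold changes matched those of Y198F against the S205A controls within 0.00016 for every gene, and correlated with those against the labelled controls at only 0.53 across genes. In that table Adora2a stands at 2.29 on the log2 scale (adjusted p = 0.124), and no receptor is called there. With the series as a term in the DESeq2 fit of all groups, chosen after the data were seen, the same contrast gave 2.76 (adjusted p = 0.0340), and against the labelled Y198F controls 1.61 (adjusted p = 1). Against the labelled Y198F controls the edgeR value of Adora2a was 0.52 ± 0.54 (adjusted p = 0.583). The deposited Y198F and S205A tables thus share their control libraries, and their Adora2a values are not separate evidence.

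Whether the effects differed between lines was tested for each of the 6 pairs of comparisons. Of the 60 receptor tests, 0 passed edgeR's adjusted p of 0.05 and 3 had an unadjusted p under 0.05. Of all genes, 11.6% were called for the difference between Panx1 KO and Y198F (4577 of 17347 had an unadjusted p under 0.05) and 5.7% for that between Y198F and Y308F. In the other 4 pairs, 0 to 2 genes were called. With all 8 groups in 1 fit the counts of these pairs fell from 2004 to 108 genes and from 979 to 0, and with the series term to 3 and 0. The log2 effect on Adora2a differed by -2.21 between Panx1 KO and S205A (edgeR adjusted p = 0.999) and by 2.32 between S205A and Y308F (edgeR adjusted p = 1.0). The effect on P2rx1 differed by -0.54 between Panx1 KO and Y198F (edgeR adjusted p = 0.184), and by -0.17 with the series term (edgeR adjusted p = 1).

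Around the receptors, the list of G proteins and effectors had 4 of 20 genes higher and 1 lower in Y198F than in the labelled controls, where 15% of all genes were called (1532 higher and 879 lower). Gna12 (log2 fold change 0.60, edgeR adjusted p = 0.00266) and Gna11 (0.47, edgeR adjusted p = 0.00776), which encode alpha subunits of related G protein families, rose. Gnaq, the alpha subunit of Gq itself, fell by 0.50 (edgeR adjusted p = 0.00944). The adenylyl cyclase genes Adcy5 (0.50, edgeR adjusted p = 0.0235) and Adcy4 (0.41, edgeR adjusted p = 0.0266) rose. Of 13 tested genes for ectonucleotidases and adenosine handling, only Nt5e, whose product forms adenosine from AMP, was called, against the same 15% of all genes. It had 0.284 ± 0.294 CPM in Y198F against 2.73 ± 2.09 in controls (-3.24, edgeR adjusted p = 0.0423, and 0.0312 to 0.175 with each library left out). With the series as a term, all 6 genes had an edgeR adjusted p of 1. Their values then were -0.062 for Gna12, 0.053 for Gna11, 0.16 for Gnaq, -0.18 for Adcy5, 0.017 for Adcy4 and -2.05 for Nt5e. Gna12, Gnaq and Adcy5 thus changed sign. The term rests on the S205A line and does not separate genotype from series in Y198F. With a library left out, the highest edgeR adjusted p was 0.0207 for Gna12, 0.0544 for Gna11, 0.0644 for Gnaq, 0.110 for Adcy5 and 0.0801 for Adcy4, so that only Gna12 passed in every case. In the other 3 comparisons 0 genes of these lists passed the threshold. Entpd1, the main vascular enzyme that degrades ATP and ADP, stood at 53.8 CPM per kb and did not pass in any comparison. P2rx5, another ATP-gated channel, had a value of -0.93 in Panx1 KO (edgeR adjusted p = 0.265).

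The genes whose deviations were most like those of each receptor were sought among 18714 genes over 15 libraries outside the 22 series, with r over the 9 libraries of the 22 series beside it, as a description. For P2rx1 they were Pbxip1 (0.966, and 0.907 in the 22 series), Esyt1 (0.954 and 0.873) and Hpse2 (0.954 and 0.934). For Adora1 they were Dbi (0.971 and 0.789), Bche (0.952 and 0.975) and Abcd2 (0.947 and 0.793). The closest gene was Irf1 for P2rx7 (0.936 and 0.881) and Ccbe1 for P2rx4 (0.963 and 0.345), where C1qa, a macrophage complement gene, was also among the 3 (0.945 and 0.775). The closest genes of the other receptors were Trac for P2ry1 (0.906 and 0.702), Cpne6 for P2ry6 (0.930 and 0.316), Klf5 for Adora2a (0.896 and 0.482) and Cntn6 for Adora2b (0.943 and 0.0406). For P2ry2 the closest was Gm57064 (0.971 and -0.285) and for P2ry14 Kdelc2 (0.891 and 0.0292). Between the neighbours P2rx4 and P2rx7, r was 0.386 and 0.353. Between P2ry2 and P2ry6, which also lie side by side, it was -0.751 and -0.632, and P2rx1 and P2ry6 moved together at 0.617 and 0.883. Within each set these libraries differed in depth and tissue composition, and the part of both in these correlations was not tested.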

How the data were processed

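The authors aligned the reads with STAR 2.7.9a to GRCm39 and made gene counts with featureCounts of Rsubread 2.20.0, per the submitters' processing notes. The authors deposited these raw counts, a table of counts divided by size factors (signal) for genes with a summed count over 50, and tables of DESeq2 1.46.0 comparisons with base means (signal), log2 fold changes, standard errors and test statistics (score), p-values and adjusted p-values. The annotation release is not given in the sources used here.

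From the deposited counts, genes passing edgeR's filterByExpr were tested with the quasi-likelihood test (edgeR 4.0.16, R 4.3.3, TMM scaling) between the 2 groups of each comparison. Benjamini-Hochberg adjustment ran over all tested genes, and the threshold was 0.05. The log2 CPM of the correlations used a prior count of 2. CPM values use TMM-scaled totals. Single genes were also compared with a two-sided exact permutation test, and correlations with 100000 two-sided permutations (scipy 1.17.1). Alternatives were DESeq2 1.42.0, limma voom 3.58.1, other scaling, no filter, all groups in 1 fit, a series term, a replicate block and leaving out each library. The procedure was tested on simulated data. Gene positions and exon lengths came from GENCODE vM39 on GRCm39. The edgeR 95% limits are the log2 fold change ± 1.96 SE, and this SE includes the spread between libraries. Floors cover counting error only. The most different libraries of a group had a chi-square of 142 per degree of freedom and the most alike 13.6, so none were duplicates.

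The receptors and gene lists were chosen with earlier results of these data known. All 10 receptors are named throughout; other genes are named where a list gene passed the threshold (at most 5 per list and comparison), where they were among the 3 most similar to a receptor, or as the check of the knockout; P2rx5, Entpd1 and the overlapping genes were named after their values were seen. Deviations of same-numbered libraries correlated from -0.284 to 0.225 over 13 pairs, 4 of them above 0.1, so the replicate numbers were not taken as pairs. The result of 1 marker list is not reported here.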

Additional observations from a re-analysis of the deposited data

Results flagged for a closer look

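P2rx7 in S205A had 1 library below 3 nearly equal ones: 31.5 CPM in S205A 4, against 35.2, 35.9 and 35.3. WT 2 and S205A control 3 were close to it, at 32.3 CPM each. The gap of S205A 4 to the nearest library of its group, relative to the group's range, exceeded Dixon's critical value for 4 samples. 20 sets of 4 libraries were tested, of which chance flags about 1.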

How the results depend on the processing

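Of 570 refitted receptor values, 0 passed the threshold and 59 changed sign, 37 of them with a library left out. These do not include the DESeq2 fits of all 8 groups. There Adora2a passed in S205A (DESeq2 adjusted p = 0.0375, and 0.0113 with the series term). It also passed in Y198F against the S205A controls with the series term (DESeq2 adjusted p = 0.0340). Sign changes under other settings were, in log2: for Panx1 KO, P2ry2 0.040 (limma) and P2ry14 -0.0032 (DESeq2 or its size factors), -0.12 (limma) and -0.019 (all 8 groups, with or without the series term); for Y198F with the series term, P2rx1 -0.055, P2rx7 0.19, P2ry1 -0.032, P2ry6 -0.40 and Adora2b -0.22; against the S205A controls of the 22 series, P2rx1 -0.12, P2rx7 0.21, P2ry1 -0.26 and P2ry6 -0.10; against all 4 S205A controls, P2rx7 0.085 and P2ry1 -0.18; for S205A within the 22 series, P2rx1 -0.081 and Adora1 0.047, and P2ry1 0.063 (limma). With the replicate block, P2ry1 in S205A was 0.23 and Adora1 in Y308F 0.068, and no receptor call changed; for all genes the block moved the Panx1 KO count from 5 to 18. The Panx1 KO count was 107 with DESeq2, 10 with limma and 243 without the filter. The Y198F count of 2411 was 922 over all 8 groups and 0 with the series term or against either set of S205A controls. DESeq2 called 40 genes in S205A, and 7 were called in Y308F without the filter. With each library left out, the counts were 1 to 5, 908 to 2128, 0 to 1 and 0 to 1 for Panx1 KO, Y198F, S205A and Y308F. The receptors that changed sign then ranged as follows. Panx1 KO: Adora2a -0.49 to 0.45, P2rx7 -0.0077 to 0.18, P2ry14 -0.28 to 0.34, P2ry2 -0.27 to 0.062 and P2ry6 -0.16 to 0.18. S205A: Adora1 -0.50 to 0.077, Adora2b -0.15 to 0.25, P2rx1 -0.12 to 0.32, P2rx4 -0.080 to 0.14, P2rx7 -0.21 to 0.18 and P2ry1 -0.47 to 0.41. Y198F: Adora1 -0.24 to 0.51 and P2ry2 -0.16 to 0.077. Y308F: Adora1 -0.43 to 0.66, Adora2a -0.62 to 0.15, Adora2b -0.64 to 0.0096, P2rx1 -0.31 to 0.071, P2rx7 -0.20 to 0.0069 and P2ry2 -0.26 to 0.088. With each library left out, the Adora2a adjusted p for S205A in the DESeq2 fit of all groups was 0.00176 to 0.339. Of the 5 marker relations past the threshold, 3 passed without S205A control 1 and 3 without S205A control 2. The causes were not tested. At 0 to 73 counts for Adora2a and 15 to 109 for P2ry14, small differences in these genes were not detectable.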
